A study of Drosophila melanogaster with 12 samples.

Results

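Odorant receptors (Or) and ionotropic receptors (Ir) are the 2 large families of proteins with which *Drosophila* sensory neurons detect volatile chemicals, humidity and temperature, and some tastants. The genes described here are those whose current RefSeq symbol is Or or Ir followed by a number and a letter, together with *Orco*, and that have at least 1 Affymetrix probe set assigned to that gene alone. This rule, which uses no measured value, gave 110 genes of the 11982 measured in all, of which 57 are Or genes and 53 are Ir genes. RefSeq lists 126 such genes, 60 Or and 66 Ir, so 16 were not analysed as single genes, 3 of which (*Or19a*, *Or19b* and *Ir75d*) are read only by a probe set shared with another gene. Values are given throughout as RMA log2 intensities, where a difference of 1 is a doubling.

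Each odorant receptor forms a channel with the co-receptor Orco, and a neuron usually makes a single tuning receptor, which fixes the odours it answers to and the glomerulus it projects to. Antennal Or neurons sit in basiconic, trichoid, intermediate and coeloconic sensilla, and others lie in the maxillary palp or, in the larva, in the dorsal organ. Ir proteins descend from ionotropic glutamate receptors and use the co-receptors Ir8a, Ir25a, Ir76b and Ir93a. The antennal Ir genes act in coeloconic sensilla, the sacculus and the arista, whereas many of the remaining Ir genes are known from taste organs.

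RNA came from whole adult heads collected 60 h after eclosion, in 4 groups of 3 arrays that the labels call biological replicates. The control was w1118. The mutants carried the loss-of-function alleles *tbph* Δ23 or *tbph* Δ142 of *TBPH*, the fly homologue of TDP-43, and like the control were kept on standard food. The rescue carried *tbph* Δ23 on both chromosomes with *elav*-GS-GAL4 and UAS-TBPH and was fed 5 mM RU-486 from eclosion for 60 h, which switches on the transgene in neurons. No fed driver-only or transgene-only group was included. The effects of RU-486, its sucrose solution, the transgenes, their strain background and restored TBPH cannot be told apart. The sources used here do not give the sex of the flies or the number of heads in a sample.

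Several features of the whole data set bear on the receptors. The bright *TBPH* probe set had a mean of 7.98 ± 0.03 (SD, n = 3) for w1118, 8.19 ± 0.12 for *tbph* Δ23, 5.43 ± 0.10 for *tbph* Δ142 and 9.51 ± 0.34 for the rescue. No source used here states where its probes lie relative to the Δ23 deletion, so it checks only the *tbph* Δ142 and rescue labels. The 3 rescue arrays lay farther from each other (mean distance over all genes 48.7) than the arrays of the other groups (21.4 to 23.0). Markers of head tissue were present, since 7 of 8 pan-neuronal genes and 5 of 5 photoreceptor genes had means of at least 5 in every group. Markers of the antenna were not evenly present. The 10 measured genes for secreted antennal proteins had array medians of 3.80 to 3.86 in w1118, close to the dim end of the scale. However, 2 of the 10, *lush* and *Obp28a*, were bright there, with w1118 means of 7.34 and 7.53. The medians of the 10 genes were 7.07, 3.53 and 3.46 on *tbph* Δ23 replicates 1, 2 and 3, and 3.88, 3.55 and 5.64 on *tbph* Δ142 replicates 1, 2 and 3. On rescue replicates 1, 2 and 3 they were 10.2, 8.87 and 7.98. The labels say that heads were dissected on dry ice, and no source used here says whether antennae stayed attached.

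Most receptor genes were dim on every array. The median over the 110 genes lay between 3.17 and 3.36 on the 12 arrays, whereas the median over all 11982 genes lay between 5.77 and 5.92. Group means of at least 4 were reached by 9 receptor genes in w1118, 8 with *tbph* Δ23, 9 with *tbph* Δ142 and 18 in rescue heads. For scale, of 31 ovary and testis genes, not expected to be active in a head, 7, 6, 8 and 8 reached that level in the same groups. The largest minus the smallest of the 12 values was under 0.5 for 64 receptor genes and under 1 for 102 of 110. In bulk RNA of this kind, fewer neurons of a type and less receptor RNA per neuron cannot be told apart.

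**Figure D1:**
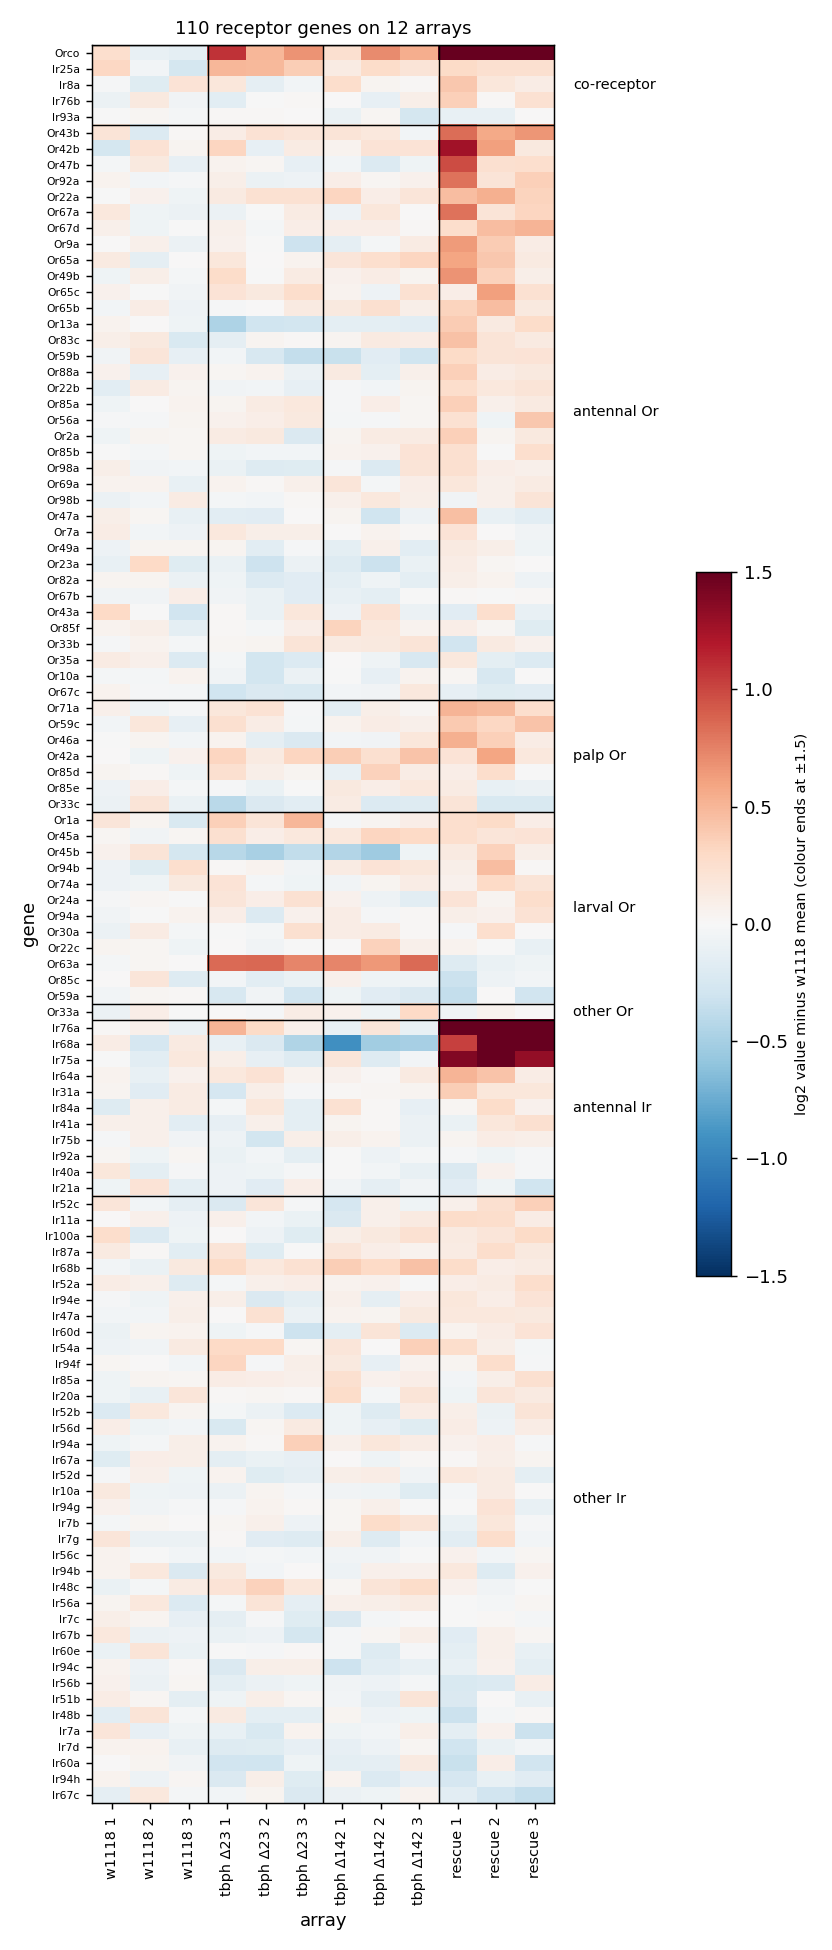
Each row is 1 of the 110 receptor genes, grouped by class, each column 1 of the 12 arrays, and the colour is the log2 value minus the gene's w1118 mean, with the colour scale ending at 1.5 in either direction. *Orco*, *Ir76a*, *Ir68a* and *Ir75a* are darkest on the 3 rescue arrays, *Or63a* is raised on the 6 mutant arrays, and most other rows are pale.

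Across the 6 comparisons between groups, 33 receptor genes passed the test (limma, Benjamini-Hochberg adjusted p under 0.05 over all genes) at least once and 77 never did. Over all genes, 51.2% passed at least once. Most of the calls concerned the rescue. Of the 110 genes, 23 were higher and 1 was lower in the rescue than in w1118, with a median difference of 0.10, against 16.9% higher and 18.04% lower among all genes. Against *tbph* Δ23, 21 were higher and 1 was lower (all genes 14.3% and 15.1%), and against *tbph* Δ142, 14 were higher and 1 was lower (14.3% and 13.2%). Read against these backgrounds, the share of higher receptors lay close to that of all genes, while the share of lower receptors was well below it. The backgrounds were not matched for level, since 66.5% of all genes but 8.18% of receptors had w1118 means of at least 4. Most receptors lay near the dim end, so the low share of lower calls is not read as a result about receptors. The part of level in that share was not tested. The 3 comparisons with the rescue share its arrays and are not independent of one another.

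Among the receptor classes, the higher calls in the rescue fell mostly on those of adult olfactory organs. Over all genes, 16.9% were higher and 18.04% lower in the rescue than in w1118. Against w1118 the higher receptors comprised 13 of 36 antennal Or genes (median difference 0.19), 4 of 7 palp Or genes (0.31), 4 of 11 antennal Ir genes (0.12), 1 of 5 co-receptors and 1 of 12 larval Or genes. Of the 38 other Ir genes, 0 were higher by limma (1 at an unadjusted p under 0.05) and 1, *Ir67c*, was lower by 0.27 (adjusted p = 0.0459), and the only Or gene outside these organs, *Or33a*, was among the dimmest and differed by 0.00. These class counts were not tested against each other. By sensillum, 4 of 8 trichoid, 9 of 25 basiconic, 0 of 2 intermediate and 0 of 1 coeloconic Or genes were higher, as were 2 of 7 coeloconic and 2 of 3 sacculus Ir genes and not the arista receptor *Ir21a* (-0.18). The coeloconic Or gene, *Or35a*, is a median of 3 probe sets that did not move alike. In w1118 they read 3.40, 3.36 and 3.15, then 2.99, 2.76 and 2.94, then 3.39, 3.34 and 3.07. In the rescue the same sets read 3.90, 3.35 and 3.45, then 3.43, 2.84 and 3.06, then 2.97, 3.12 and 3.04. On the single arrays, the antennal Or median was 3.20, 3.24 and 3.16 in w1118, 3.20, 3.11 and 3.16 in *tbph* Δ23, and 3.21, 3.20 and 3.23 in *tbph* Δ142. It was 3.50, 3.39 and 3.30 on rescue replicates 1, 2 and 3. The rescue medians therefore lay above all 9 others, by small amounts.

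**Figure D2:**
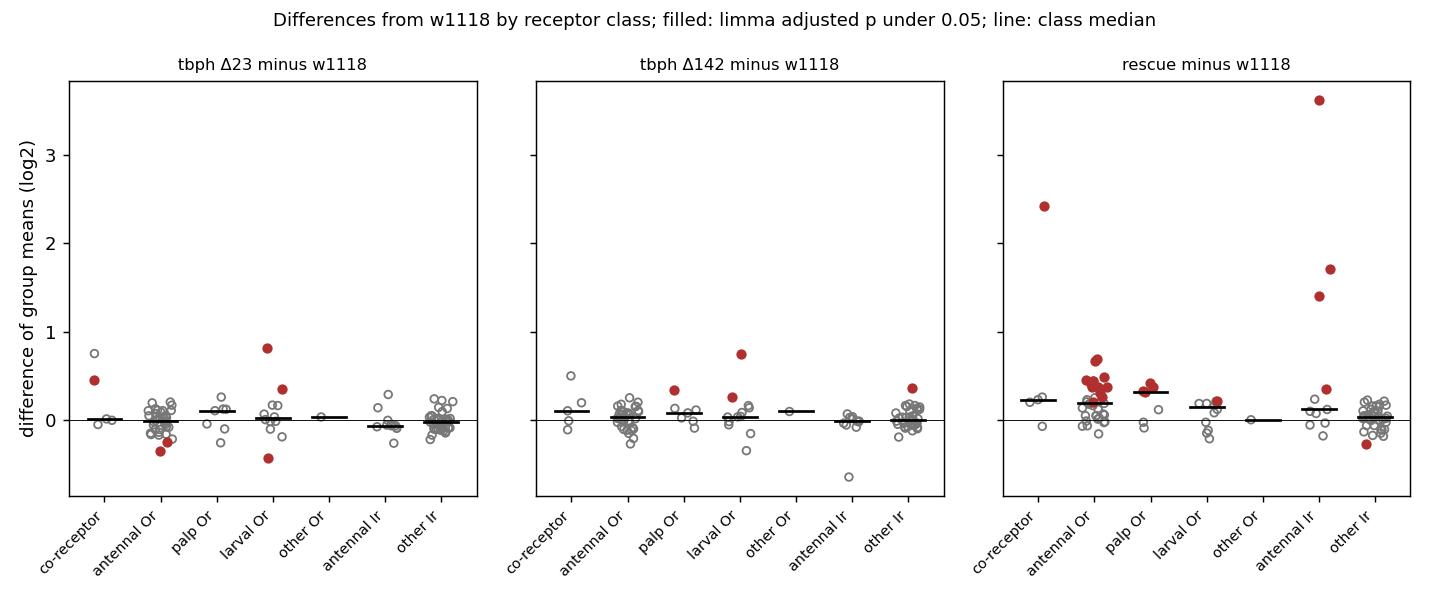
Each point is a receptor gene, placed by class on the horizontal axis and by its difference of group means from w1118 (log2) on the vertical axis, in a panel each for *tbph* Δ23, *tbph* Δ142 and the rescue. Filled points passed limma's adjusted p of 0.05 and bars mark class medians, which lie at 0.19 for antennal Or and 0.31 for palp Or genes in the rescue and nearer to 0 in the mutants.

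Rescue replicate 1 carried much of the antennal Or difference. It was the highest of the 3 rescue arrays for 27 of 36 antennal Or genes, compared with 31.9% of all genes, for 8 of 38 other Ir genes and for 2 of 11 antennal Ir genes. Without that array, 13 receptors were higher in the rescue than in w1118 (16.8% of all genes), of which 6 were antennal Or genes, and 12 were higher than in *tbph* Δ23 (13.4% of all genes). Fitted on the rescue and w1118 arrays alone, 10 receptors were higher (13.7% of all genes), of which 3 were antennal Or genes, 2 palp Or genes and 3 antennal Ir genes. Leaving out w1118 replicate 3 gave 14 higher than in w1118 (14.7% of all genes), and leaving out *tbph* Δ23 replicate 3 gave 12 higher than in that mutant (11.2% of all genes). Rescue replicate 1 was also the highest rescue array for all 10 of the secreted antennal genes, and its part in the receptor result beyond these values was not tested.

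The co-receptor *Orco*, which every Or neuron needs, had the largest change of the Or family. It read 4.62, 4.26 and 4.23 in w1118 replicates 1, 2 and 3, and 7.93, 6.35 and 6.09 in the rescue. In the mutants it read 5.45, 4.87 and 5.05 with *tbph* Δ23 and 4.61, 5.08 and 4.91 with *tbph* Δ142. The rescue arrays lay above all others without overlap, and replicate 1 lay far above the other rescue arrays. The rescue was higher than w1118 by 2.42 ± 0.38 (SE), which is 5.36-fold (limma adjusted p = 3.26e-04), than *tbph* Δ23 by 1.67 (adjusted p = 0.00536) and than *tbph* Δ142 by 1.92 (adjusted p = 0.00264). The mutants exceeded w1118 by 0.75 (adjusted p = 0.194) and 0.50 (adjusted p = 0.391), and did not pass. In fits of each mutant with w1118 alone these differences passed, at adjusted p = 0.00924 and 0.0310, a fit that leaves out the spread of the rescue arrays. Over all alternatives the adjusted p reached 0.455 and 0.612.

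The 4 Ir co-receptors did not follow *Orco*. *Ir25a*, the most widely used of them, read 4.56, 4.21 and 3.99 in w1118 and 4.76, 4.74 and 4.63 in *tbph* Δ23, and was higher there by 0.45 ± 0.12 (adjusted p = 0.0157). It read 4.38, 4.53 and 4.44 in *tbph* Δ142 and 4.55, 4.50 and 4.50 in the rescue, and passed neither test against w1118. Without w1118 replicate 1 it passed both, at 0.35 in *tbph* Δ142 and 0.41 in the rescue (limma adjusted p = 0.0132 and 0.00323). Its call in *tbph* Δ23 was lost when w1118 replicate 2 or 3, or *tbph* Δ23 replicate 1 or 2, was left out. *Ir76b*, shared by olfactory and taste neurons, had group means from 4.44 to 4.69 and its rescue minus w1118 difference of 0.20 did not pass (adjusted p = 0.146), although it passed at 0.25 when array medians were centred (adjusted p = 0.0365, and up to 0.400 over the alternatives). *Ir8a*, the partner of acid-sensing Ir proteins, had group means from 3.19 to 3.43, and *Ir93a*, needed for temperature and humidity sensing, from 3.51 to 3.63. No comparison passed for either.

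Antennal Ir genes held the largest single change. *Ir76a*, an amine receptor of coeloconic sensilla, read 3.42, 3.47 and 3.31 in w1118, 3.91, 3.69 and 3.47 in *tbph* Δ23 and 3.29, 3.59 and 3.29 in *tbph* Δ142. In the rescue it read 7.06, 6.95 and 7.06. The 3 rescue values were close together and far above the 9 others, which were all in the dim range. The rescue was higher than w1118 by 3.62 ± 0.11, 12.3-fold (adjusted p = 1.18e-09), than *tbph* Δ23 by 3.33 and than *tbph* Δ142 by 3.64. The level of *Ir76a* varied less than that of the secreted antennal genes, whose medians lay between 7.98 and 10.2 on the rescue arrays and at 7.07 on *tbph* Δ23 replicate 1, where *Ir76a* read 3.91.

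*Ir68a* and *Ir75a* were also higher in the rescue than in each other group. *Ir68a*, a receptor of moist-sensing neurons of the sacculus, was visible in every group. It read 5.13, 4.77 and 5.15 in w1118, 4.91, 4.80 and 4.56 in *tbph* Δ23, and 4.10, 4.49 and 4.52 in *tbph* Δ142. In the rescue it read 6.05, 7.20 and 6.93, so replicate 1, the highest array for *Orco*, was the lowest for *Ir68a*. The rescue exceeded w1118 by 1.71 ± 0.25, 3.27-fold (adjusted p = 1.86e-04), *tbph* Δ23 by 1.97 and *tbph* Δ142 by 2.35. *Ir75a*, an acid receptor of coeloconic neurons, read 3.20 to 3.57 on the 9 other arrays and 4.78, 4.89 and 4.71 in the rescue. Its difference from w1118 was 1.40 ± 0.11, 2.64-fold (adjusted p = 1.73e-06). The adjacent gene *Ir75b* differed by 0.08.

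The other antennal Ir genes moved little. *Ir64a*, an acid receptor of the sacculus, was higher in the rescue than in w1118 by 0.35 (adjusted p = 0.0155), and *Ir31a* was higher than in *tbph* Δ23 by 0.30 (adjusted p = 0.0414). *Ir84a*, a receptor for aromatic food odours, had group means from 3.96 to 4.09 and passed no comparison. Against w1118, 0 of the 11 antennal Ir genes passed limma's test in either mutant (at an unadjusted p under 0.05, 1 gene each passed, above w1118 with *tbph* Δ23 and below it with *tbph* Δ142).

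**Figure D3:**
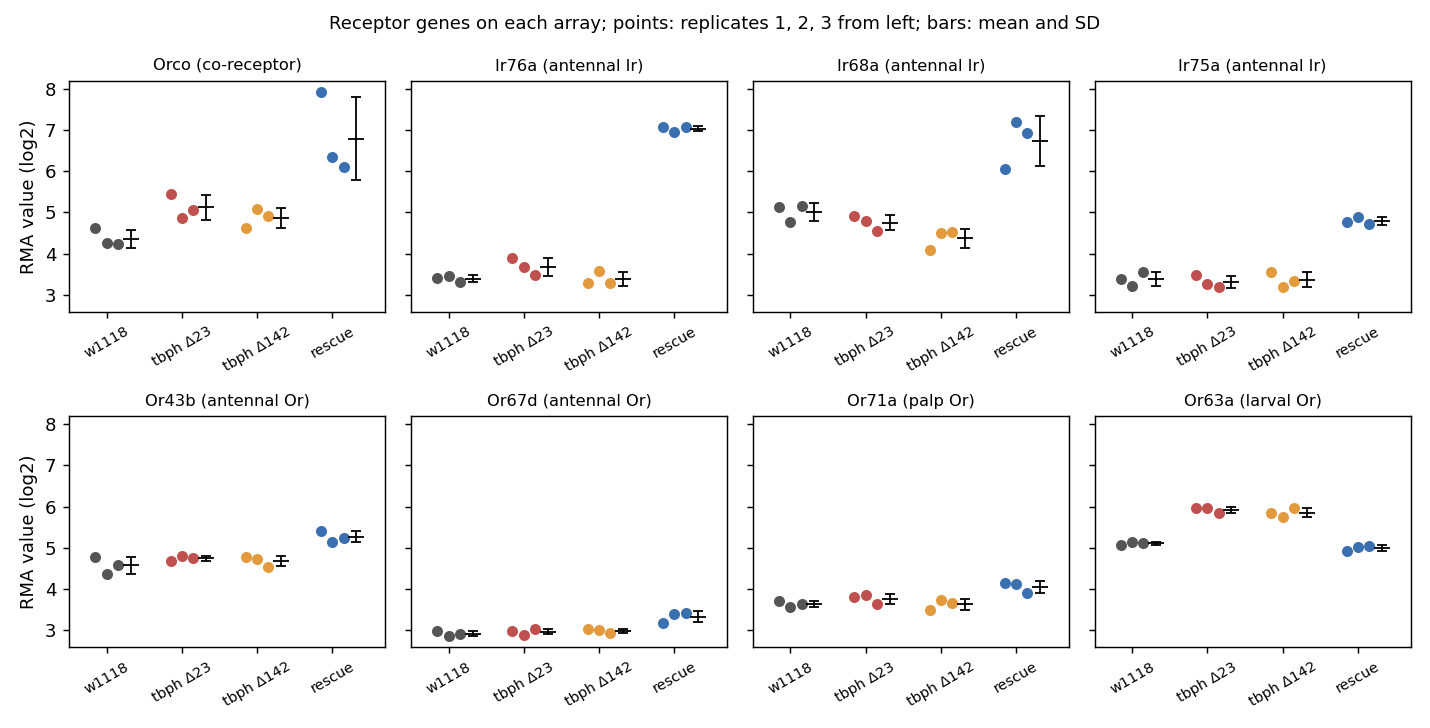
Each panel shows a receptor gene, with the 3 arrays of each group as points (replicates 1, 2 and 3 from left), the mean and SD as bars, and the RMA log2 value on the vertical axis. *Ir76a* lies at about 7 on the 3 rescue arrays and below 4 elsewhere, *Orco* is highest on rescue replicate 1, and *Or63a* is raised in both mutants.

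Among antennal Or genes, *Or43b* of basiconic sensilla had the largest difference. It read 4.77, 4.37 and 4.59 in w1118 and 5.41, 5.14 and 5.24 in the rescue, a difference of 0.69 ± 0.11 (adjusted p = 3.01e-04), and was 4.54 to 4.79 on the mutant arrays. *Or22a*, tuned to fruit esters, read 3.79, 3.86 and 3.73 in w1118 and 4.26, 4.33 and 4.13 in the rescue (0.45 ± 0.08, adjusted p = 6.59e-04). *Or67d*, the receptor for the male pheromone cis-vaccenyl acetate, read 3.00, 2.86 and 2.92 in w1118 and 3.18, 3.39 and 3.43 in the rescue (0.41 ± 0.08, adjusted p = 0.00116). In these genes all 3 rescue arrays lay above the 9 others, and their calls held without any single array. The values of *Or67d*, however, lay in the lowest part of the scale, where its 1.33-fold difference is small beside the range of the array.

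In several other antennal Or genes the difference rested largely on 1 rescue array. *Or42b*, needed for attraction to vinegar, read 3.15, 3.62 and 3.45 in w1118 and 4.66, 4.02 and 3.55 in the rescue (0.67 ± 0.23, adjusted p = 0.0394), so the groups overlapped. *Or47b*, a receptor for fly-derived fatty acid esters in courtship, read 3.62, 3.79 and 3.53 in w1118 and 4.63, 3.89 and 3.90 in the rescue (0.49 ± 0.17, adjusted p = 0.0396). *Or67a* (0.44, adjusted p = 0.0306), *Or9a* (0.38, adjusted p = 0.0482) and *Or65a* (0.38, adjusted p = 0.0191) were likewise highest on rescue replicate 1. The calls of these 5 genes against w1118 were lost without that array, when their differences were 0.38, 0.24, 0.26, 0.24 and 0.27. Each was also lost without at least 1 w1118 array and in the fit of the 2 groups alone. *Or92a*, a diacetyl receptor, read 3.25, 3.16 and 3.19 in w1118 and 4.02, 3.39 and 3.55 in the rescue (0.45, adjusted p = 0.0150), and its call was lost only when the 2 groups were fitted alone. *Or43a*, with the second highest mean over the 12 arrays among antennal Or genes after *Or43b*, read 4.30 in the rescue and 4.31 in w1118.

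*Or13a*, a receptor for the mushroom alcohol octenol, also differed in a mutant. It read 3.33, 3.29 and 3.21 in w1118, 2.82, 2.98 and 3.00 in *tbph* Δ23, and 3.14, 3.13 and 3.12 in *tbph* Δ142. In the rescue it read 3.66, 3.42 and 3.55. All 6 mutant arrays lay below the 6 others, an arrangement found in 3.80% of all genes. It was lower in *tbph* Δ23 than in w1118 by 0.35 (adjusted p = 0.00654) and rescue arrays exceeded those of *tbph* Δ23, *tbph* Δ142 and w1118 by 0.61, 0.41 and 0.26 (adjusted p = 8.52e-05, 0.00170 and 0.0170).

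Of the palp Or genes, *Or71a*, which detects phenolic odours, and *Or59c* had all 3 rescue arrays above the 9 others. *Or71a* read 3.72, 3.58 and 3.63 in w1118 and 4.16, 4.12 and 3.90 in the rescue (0.41 ± 0.09, adjusted p = 0.00456), and 3.49 to 3.86 in the mutants. *Or59c* read 3.84, 4.05 and 3.76 in w1118 and 4.28, 4.20 and 4.31 in the rescue (0.38 ± 0.09, adjusted p = 0.00504). *Or46a* was higher in the rescue than in w1118 by 0.33 (adjusted p = 0.0307) and *Or42a* by 0.31 (adjusted p = 0.0430). Both calls were lost without any one w1118 array. In both genes the rescue arrays overlapped those of the mutants, but not those of w1118. *Or46a* is a median of 3 probe sets that did not move alike. In w1118 they read 3.52, 3.40 and 3.47, then 2.97, 3.19 and 3.08, then 3.15, 2.99 and 3.11. In the rescue the same sets read 3.80, 3.53 and 3.32, then 3.33, 3.29 and 3.04, then 3.68, 3.50 and 3.26. *Or42a* was also higher in *tbph* Δ142 than in w1118 by 0.34 (adjusted p = 0.0393), a call lost with the replicate block and without any w1118 array or *tbph* Δ142 replicate 1 or 3. *Or85e*, among the brighter palp receptors, had group means from 3.96 to 4.14 and passed no test.

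In all, 12 receptor genes were higher in the rescue than in each of the other 3 groups (all genes 7.31%). They were *Orco*, 3 antennal Ir genes (*Ir68a*, *Ir75a* and *Ir76a*), 6 antennal Or genes (*Or13a*, *Or22a*, *Or43b*, *Or47b*, *Or67d* and *Or92a*) and 2 palp Or genes (*Or59c* and *Or71a*). The 3 rescue arrays lay above all 9 others in 16 of the 110 genes, against 10.4% of all genes. Of these 16, 9 were antennal Or, 4 antennal Ir and 2 palp Or genes, and 1 was *Orco*.

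The larval class contained the receptor that differed most between mutants and control. *Or63a*, a receptor of the larval dorsal organ, read 5.08, 5.14 and 5.11 in w1118, 5.96, 5.97 and 5.84 in *tbph* Δ23, and 5.84, 5.76 and 5.96 in *tbph* Δ142. In the rescue it read 4.92, 5.01 and 5.05. All 6 mutant arrays lay above the 6 others (3.20% of all genes), and the 3 rescue arrays lay just below all others (10.98% of all genes). Compared with w1118 it was higher by 0.81 ± 0.07 in *tbph* Δ23 (adjusted p = 9.65e-06) and by 0.75 ± 0.07 in *tbph* Δ142 (adjusted p = 1.43e-05), or 1.76-fold and 1.68-fold. The rescue was below *tbph* Δ23 by 0.93 and below *tbph* Δ142 by 0.86 (adjusted p = 1.49e-06 and 4.06e-06), and its difference of -0.12 from w1118 did not pass (adjusted p = 0.224). These calls held under each alternative and without any single array. *Or63a* was the brightest larval Or gene, at the 43.0 percentile of all genes in w1118 and the 50.7 percentile in *tbph* Δ23, although the adult head is not its known site.

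The other larval Or genes were dimmer and gave smaller differences. *Or45b* read 3.87, 3.99 and 3.54 in w1118, 3.38, 3.31 and 3.42 in *tbph* Δ23, and 3.36, 3.26 and 3.74 in *tbph* Δ142. In the rescue it read 3.94, 4.14 and 3.88. It was lower in *tbph* Δ23 than in w1118 by 0.43 (adjusted p = 0.0452), a call lost with centred medians, with the replicate block, and without any *tbph* Δ23 array or w1118 replicate 1 or 2, and the rescue exceeded *tbph* Δ23 by 0.61 (adjusted p = 0.00490) and *tbph* Δ142 by 0.53 (adjusted p = 0.0123). *Or1a* was higher in *tbph* Δ23 by 0.35 (adjusted p = 0.0388), a call lost with the replicate block, with the 2 groups fitted alone, and without w1118 replicate 2 or 3 or *tbph* Δ23 replicate 1 or 3. *Or45a* was higher in *tbph* Δ142 by 0.26 (adjusted p = 0.0119) and in the rescue by 0.21 (adjusted p = 0.0247). The first call was lost without *tbph* Δ142 replicate 2 (0.23, adjusted p = 0.0503), and the second without w1118 replicate 2 or rescue replicate 1 or 3. *Or94b*, second in mean level of the larval Or genes, had group means from 3.79 to 3.98 and passed no comparison.

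Against w1118 the mutants changed few receptors. In *tbph* Δ23, 3 of 110 were higher (*Or63a*, *Ir25a* and *Or1a*) and 3 lower (*Or45b*, *Or13a* and *Or67c*), where 9.40% and 11.9% of all genes were called. The *Or67c* call was lost without w1118 replicate 1 or *tbph* Δ23 replicate 1. In *tbph* Δ142, 4 were higher (*Or63a*, *Ir68b*, *Or42a* and *Or45a*) and 0 lower, where 10.05% and 14.96% of all genes were called. At an unadjusted p under 0.05, 3 were lower in *tbph* Δ142. The share of receptors called was thus below that of all genes in both mutants. Most receptors were dim, where differences are compressed, and all genes are not a background matched for level. Between the mutants, 1 receptor, *Or67c*, differed, higher with *tbph* Δ142 by 0.27 (adjusted p = 0.0495), where 1.42% of all genes were higher and 2.07% lower. *Or63a* alone was called in both alleles (all genes 6.14% higher and 9.68% lower in both). *Ir68b*, of the Ir genes with no antennal role listed here, read 3.23, 3.17 and 3.42 in w1118 and 3.64, 3.57 and 3.71 in *tbph* Δ142 (0.37 ± 0.08, adjusted p = 0.00532), and 3.55, 3.43 and 3.50 in *tbph* Δ23. The brightest genes of that class, *Ir56d*, *Ir56c* and *Ir56b*, which are known from taste organs, differed from w1118 in the rescue by 0.05, 0.02 and -0.11 and passed no comparison.

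Of the antennal gene lists set beside the receptors, that of secreted proteins changed most in the rescue. Of the 10 secreted antennal genes, 9 were higher in the rescue than in w1118 (all genes 16.9%), with a median difference of 4.56. The gene not called was *lush* (1.03, limma adjusted p = 0.0587). It read 7.28, 7.67 and 7.09 in w1118, 7.18, 7.12 and 7.58 in *tbph* Δ23, and 5.00, 5.34 and 5.61 in *tbph* Δ142. The *tbph* Δ142 minus w1118 difference of *lush* was -2.03 (limma adjusted p = 0.00231). *Obp83b*, an abundant odorant-binding protein of the antenna, read 3.12, 3.18 and 3.04 in w1118 and 11.5, 9.94 and 9.68 in the rescue. It read 7.60, 3.37 and 3.34 in *tbph* Δ23 and 3.10, 3.35 and 6.07 in *tbph* Δ142, so that 1 array of each mutant stood apart. Leaving out those 2 mutant arrays, a setting chosen after seeing the data, the rescue exceeded *tbph* Δ23 in 16 receptors (11.8% of all genes) and *tbph* Δ142 in 11 (11.7% of all genes). Of 8 genes of olfactory neurons and their support cells, 4 were higher in the rescue than in w1118 (all genes 16.9%). They were *Snmp1*, a pheromone co-receptor (0.95), *Amt*, an ammonium transporter of coeloconic sensilla (0.98), and the carbon dioxide receptor subunits *Gr63a* (0.81) and *Gr21a* (0.32). *acj6*, *pdm3* and *Gr10a* differed by -0.09, 0.08 and -0.01. *Cyp6w1* was higher in *tbph* Δ23 and *tbph* Δ142 than in w1118, by 1.34 and 1.32 (limma adjusted p = 0.00118 and 9.80e-04). In the rescue it differed from these mutants by -0.90 and -0.88, both called, and from w1118 by 0.44, not called. Among 10 genes of the antennal hearing organ, 2 were higher and 1 lower in the rescue than in w1118, with a median difference of 0.11. Among 11 taste neuron genes, 0 were higher (2 at an unadjusted p under 0.05) and 1 lower. Over all genes, 16.9% were higher and 18.04% lower in that comparison. The counts of these lists were not tested against each other. The part of these gene groups in the receptor differences was not tested.

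**Figure D4:**
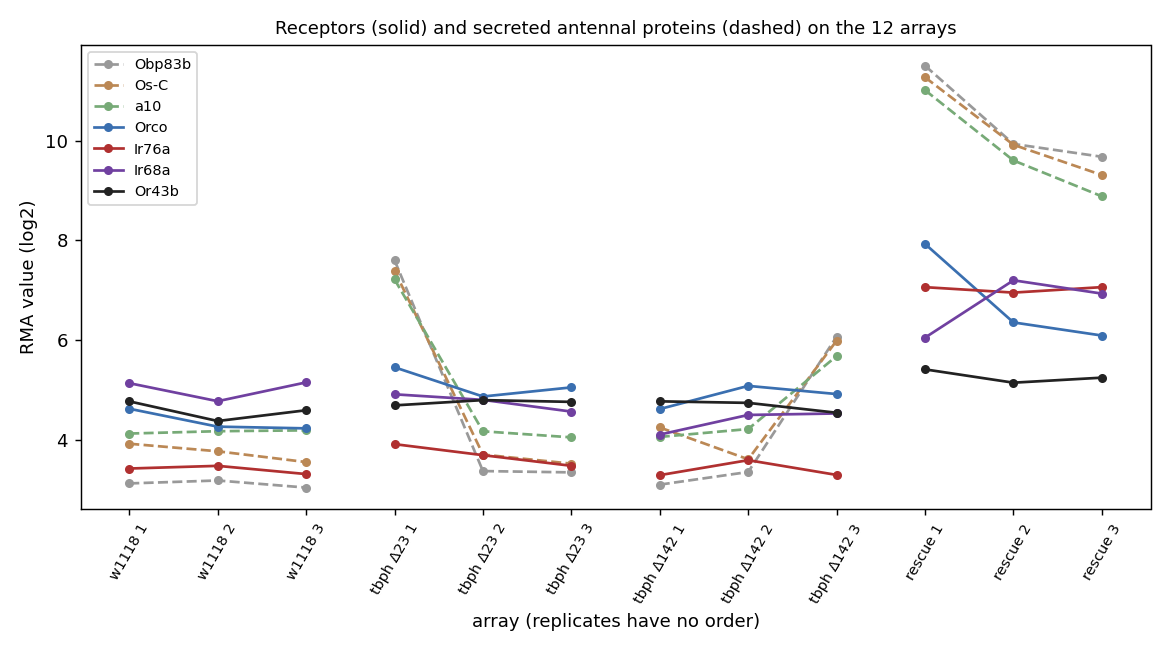
RMA log2 values (vertical axis) of 3 genes for secreted antennal proteins (dashed) and 4 receptor genes (solid) on the 12 arrays (horizontal axis), with lines joining arrays of a group only to guide the eye. The 3 secreted genes shown stand high on *tbph* Δ23 replicate 1, *tbph* Δ142 replicate 3 and the rescue arrays. *Orco* is highest on rescue replicate 1, and *Ir76a* stays near 7 on the rescue arrays and below 4 on the others.

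*Orco* had companions outside the receptor families. By the root mean square difference between 12 centred values, the 8 most similar genes that are no receptors were *Obp28a* (0.38), *CG10062* (0.41), *Jhbp15* (0.42), *Cyp6t3* (0.43), *Antdh* (0.43), *GstE4* (0.44), *CG13026* (0.45) and *Tsp29Fb* (0.45). *Obp28a*, the closest, read 7.97, 7.81 and 6.82 in w1118 and 10.5, 9.08 and 8.44 in the rescue. Like *Orco*, it was highest on rescue replicate 1. This order describes 12 arrays of 4 groups and was not tested.

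*Ir76a*, *Ir68a*, *Ir75a* and *Or63a* all lie on chromosome arm 3L, and *Orco* lies on 3R. The nearest measured genes were looked up after the values were seen. The genes next to *Ir76a*, *CG14102* and *TORIP*, differed between the rescue and w1118 by 0.02 and 0.35, those next to *Ir68a*, *CG42671* and *scyl*, by 0.26 and -0.48, and those next to *Or63a*, *CG34025* and *CPT2*, by -0.25 and 0.12. Next to *Ir75a*, *Cln3* differed by 0.73. Next to *Orco*, *CG2663* and *CG14669* differed by -0.29 and 0.29. Of the genes up to 3 places away, *serp*, which encodes a chitin deacetylase and lies 3 genes from *Ir76a*, differed most. It was at 11.2 in w1118 and 7.02 in the rescue. Also 3 places away, *Ube3a* near *Ir68a* differed by -1.05 and *CG5577* near *Ir75a* by 0.96. The share of all genes that lie on 3L was not set beside these positions.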

How the data were processed

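Log2 intensities were deposited, which the authors computed from Affymetrix Drosophila Genome 2.0 arrays with RMA (background correction, quantile normalization, summary per probe set). Their number, 3 arrays a group, limits precision. Of 18952 probe sets, 13647 had 1 gene in the platform annotation, 402 had several and 4903 were not listed. Symbols were updated by Entrez identifier to RefSeq (13544 probe sets matched). The median over a gene's probe sets was taken (9 of the 110 receptors have several), giving 11982 genes. All 4 group means were fitted in a single limma model (R 4.3.3, limma 3.58.1; lmFit and eBayes, two-sided, Benjamini-Hochberg over all genes, threshold 0.05), which was tested on simulated data. Receptor classes, marker lists and members were chosen with earlier results of these data known. Named genes were the 5 co-receptors, the 15 largest rescue minus w1118 differences, the up to 6 largest called in each other comparison, the 3 brightest per class and the 8 genes most like *Orco*. Other genes came from the marker lists or were named after their values were seen. p-values measure the spread between arrays, and whether replicates were separate cultures is not given. Probe sequences were not used here, so reads of near-identical receptors (*Or22a* and *Or22b*, *Or65a*, *Or65b* and *Or65c*) may mix. *Ir76a* rested on 1 probe set, whose probes were not checked for matches to other transcripts either. Alternatives were the probe set of highest mean, centred medians, repeated quantile normalization, a minimum mean of 4, array weights, a trended robust eBayes, the replicate number as a block, the 2 groups alone and each array left out.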

Additional observations from a re-analysis of the deposited data

Results flagged for a closer look

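*Or67c*, an antennal basiconic receptor, differed between the mutants. It read 3.36, 3.29 and 3.28 in w1118 and 3.19, 3.13 and 3.14 in the rescue. The *tbph* Δ23 arrays read 3.01, 3.10 and 3.08, and the *tbph* Δ142 arrays 3.27, 3.26 and 3.46. The difference of *tbph* Δ142 minus *tbph* Δ23 was 0.27 (limma adjusted p = 0.0495, where 1.42% of all genes were called higher), so the 2 mutants differed from w1118 by unlike amounts in a direct test. Its call was lost on leaving out any single mutant array.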

How the results depend on the processing

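No named receptor changed direction in a comparison where its difference passed the test. Some differences near 0 that did not pass changed sign, among them *Or43a* in the rescue and *Ir76b* in both mutants. The calls of *Orco*, *Ir76a*, *Ir68a*, *Ir75a*, *Or43b*, *Or22a*, *Or67d*, *Or71a* and *Or59c* against w1118 in the rescue, and of *Or63a* in both mutants, held under every alternative in which the gene was tested. In what follows, a percent in parentheses is the share of all genes tested called the same way in the same fit. With array medians centred, the count higher in *tbph* Δ23 was 5 (9.04%) and lower 2 (10.4%), and the count lower in the rescue than in w1118 was 0 (15.2%). The median over a class on each array, averaged by group, then gave a *tbph* Δ142 minus w1118 difference of 0.067 for antennal Or and 0.019 for antennal Ir genes, against 0.017 and -0.031. With quantiles equalised again, 1 receptor was lower in *tbph* Δ142 (12.7%), 4 higher (11.7%), and 0 were higher in *tbph* Δ142 than in *tbph* Δ23 (1.54%). With array weights, 5 were higher in *tbph* Δ23 (11.5%), 1 was lower in *tbph* Δ142 (17.1%), and the rescue was below *tbph* Δ23 in 2 (16.1%) and below *tbph* Δ142 in 5 (14.18%). A minimum mean of 4 left 13 receptors, so fewer could be called: 0 lower in *tbph* Δ23 (18.3%), 1 higher in *tbph* Δ142 (14.9%), 6 higher in the rescue than in each other group (20.5% to 24.2%), 0 lower than in w1118 (26.02%), and 0 differing between the mutants (2.55% higher, 4.04% lower). That last count was also 0 with the probe set of highest mean and with the trended robust fit. The minimum of 4 was set on the mean of all 12 arrays, those of the rescue included. *Ir76a*, with means of 3.40 in w1118 and 7.02 in the rescue, passed it only through the rescue arrays. The count of 6 higher was therefore partly fixed by the filter and adds no support. In fits of the 2 groups alone, 10 were higher (13.7%) and 0 lower (15.5%) in the rescue than in w1118, 1 was lower in *tbph* Δ142 (13.8%), and 0 differed between the mutants.

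Same-numbered arrays did not deviate together (18 pairs, r from -0.212 to 0.0914), so the replicate number does not pair the samples. With the replicate block, the rescue was below w1118 in 0 receptors (17.4%) and *tbph* Δ142 above *tbph* Δ23 in 0 (0.968%).

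Leaving out 1 array at a time gave 13 to 21 higher and 0 to 2 lower in the rescue than in w1118, 12 to 23 and 1 to 1 than in *tbph* Δ23, and 10 to 17 and 1 to 2 than in *tbph* Δ142. It gave 1 to 3 higher and 1 to 3 lower in *tbph* Δ23 than in w1118 (1 higher without w1118 replicate 2 or *tbph* Δ23 replicate 1, and 1 lower without the latter), 3 to 5 higher and 0 to 1 lower in *tbph* Δ142, and 0 to 0 between the mutants. In those fits the share of all genes higher and lower ran from 14.6% to 16.8% and 15.7% to 17.3% for the rescue against w1118, 11.2% to 13.4% and 12.6% to 14.1% against *tbph* Δ23, and 11.2% to 13.3% and 10.99% to 12.04% against *tbph* Δ142. It ran from 6.76% to 8.16% and 9.07% to 10.4% for *tbph* Δ23 against w1118, and 8.02% to 8.64% and 11.4% to 13.8% for *tbph* Δ142. Without *tbph* Δ23 replicate 1 and *tbph* Δ142 replicate 3, a setting chosen after seeing the data, 1 was higher in *tbph* Δ23 (7.01%), 1 lower in *tbph* Δ142 (12.96%) and 0 higher in *tbph* Δ142 than in *tbph* Δ23 (0.384%). Most receptors lay near the dim end of the scale, where a fold change is compressed and a gene that is off cannot be told from a gene that is low.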
